A study of Hipposideros armiger with 2 samples.

Results

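The genes described here are 10 genes that mark alveolar type I cells of the lung: AGER, HOPX, PDPN, CAV1, CAV2, CAVIN1, CLIC5, RTKN2, EMP2 and GPRC5A. They were taken by name from the expression tables of a study of bat liver, and the set was chosen by what earlier results of these data showed, namely measurable TPM of lung genes in both libraries. That the genes were detected is therefore a description and not a finding. Of the 10 names, 9 occurred among the 12783 protein names of the tables, and they covered 14 of the 55378 assembled genes. An assembled gene is a cluster of transcripts put together from the reads without a genome, and its name is that of its best Swiss-Prot protein match. No assembled gene was named CAVIN1, and the only one named HOPX held 0 counts in both libraries. The proteins of both genes were nevertheless listed under older Swiss-Prot names, PTRF for CAVIN1 and HOP for HOPX. Values under these older names, a choice made after the tables were seen, are given beside those of the other members.

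The study collected liver from wild-type adult male great Himalayan leaf-nosed bats (Hipposideros armiger) caught in caves in Guangdong, China. Both libraries used here carry the labels CW cave, liver and heavy metal exposure. They form 1 group of 2 libraries, so no groups were compared and no p-value was computed. Sex and age are stated on the label of replicate 2 and in the design text only, and no metal dose is given in the sources used here. Where a value follows a ± sign, it is the SD over the 2 libraries, which measures the spread between these samples only.

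Alveolar type I cells are thin, flat cells that cover most of the gas exchange surface of the lung. They lie against the capillary wall and arise from the cuboidal type II cells, which make surfactant. AGER, a cell surface receptor of the immunoglobulin family, is more abundant in these cells than in almost any other. PDPN is a mucin-type membrane glycoprotein shared with lymphatic endothelium and mesothelium. HOPX is a small homeodomain protein that does not bind DNA. CAV1, CAV2 and CAVIN1 build caveolae, the flask-shaped pits of the plasma membrane, and are also abundant in endothelium, fat and smooth muscle.

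The libraries held 18741210 and 18778331 expected counts. Hepatocyte markers gave a summed level of 10593 TPM (a length-adjusted abundance scaled to the same total in each library) in replicate 1, against 299 TPM in replicate 2. All 10 of these markers had log2 ratios of scaled counts, replicate 2 over replicate 1, between -5.62 and -1.51. The libraries labelled liver therefore stood far apart in hepatocyte RNA, and each level below is given for both. In whole tissue, fewer cells of a type and less RNA per cell cannot be told apart. The tissue make-up of each library beyond its liver label was not tested.

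AGER was the highest of the 10 genes in both libraries. Its levels were 456 TPM in replicate 1 and 729 in replicate 2 (593 ± 193, n = 2), from 15502 and 21993 counts. It ranked 139 among the 12609 names detected in replicate 1 and 85 among the 12568 detected in replicate 2. AGER alone made up 51.1% and 52.2% of the summed TPM of the members found by name, 893 and 1397 TPM. That sum leaves out HOPX and CAVIN1 under their older names, with which it was 1245 and 1938 TPM. The share of AGER is smaller there. Its 1 assembled gene held 89 assembled transcripts, a number that 21 of the 55378 assembled genes reached or passed, whereas 77.0% of assembled genes held 1 transcript.

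HOPX under the name HOP came next. The 2 assembled genes named HOP and the 1 named HOPX together had 202 and 311 TPM, from 19858 and 27061 counts. Nearly all of this came from 1 assembled gene of 4378 bases at 200 and 307 TPM. The assembled gene named HOPX is 279 bases long, and its count of 0 lies under the detection floor of 3 counts used here, or 0.16 CPM (counts scaled to the library total) in either library; the exact Poisson 95% interval of 0 counts ends at 3.69. By counts HOPX was thus higher than AGER in both libraries, while by TPM, which takes length into account, it was lower, at 0.443 and 0.426 times AGER.

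**Figure D1:**
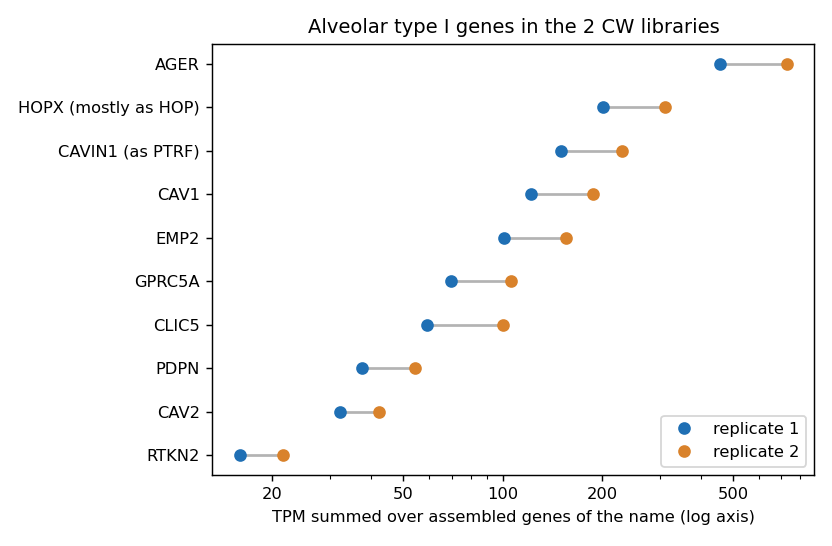
TPM of the 10 alveolar type I genes in the 2 CW libraries, on a log axis; each point is 1 library and the line joins both libraries of a gene. AGER lies highest at 456 and 729 TPM and RTKN2 lowest at 15.9 and 21.6 TPM, and replicate 2 lies to the right for every gene.

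Genes of the caveola coat formed the next group. CAVIN1, which binds and stabilises the caveolin coat, was listed as PTRF in 8 assembled genes that summed to 150 and 231 TPM. CAV1, the scaffold of the pit, had 122 TPM in replicate 1 against 188 in replicate 2, from 6553 and 9009 counts. CAV2, which joins CAV1 in mixed complexes, was lower, at 32.0 and 42.3 TPM. The level of CAV1 relative to CAVIN1 was almost the same in the libraries, 0.81 and 0.813, and relative to CAV2 it was 3.80 and 4.43. Both caveolins had their main best match in another bat, Rhinolophus ferrumequinum, whereas the main assembled genes of the other members matched human, bovine or rat proteins.

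Membrane and signalling members followed. EMP2, a tetraspan protein of the PMP22 family, was at 101 and 156 TPM. GPRC5A, an orphan G protein-coupled receptor induced by retinoic acid, was at 69.9 and 106 TPM. CLIC5, an intracellular chloride channel protein that associates with the cortical cytoskeleton, was at 59.0 and 99.96 TPM. PDPN was at 37.5 and 54.1 TPM, and RTKN2 at 15.9 and 21.6 TPM. All of these were higher in TPM in replicate 2. Even RTKN2, the lowest of the 10, lay above 68.5% of detected names in replicate 1 and 72.4% in replicate 2.

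The order of the 10 genes by TPM was identical in the libraries: AGER, HOPX, CAVIN1, CAV1, EMP2, GPRC5A, CLIC5, PDPN, CAV2 and RTKN2. Neighbours in this order were separated beyond the range of both libraries in 3 places only, between AGER and HOPX, between CLIC5 and PDPN, and between CAV2 and RTKN2. The other 6 neighbouring pairs had ranges that overlapped, since each gene was higher in replicate 2. Some steps were alike in the libraries: AGER was 2.26 and 2.35 times HOPX, and CAV1 was 1.21 and 1.20 times EMP2. Others differed more, with CLIC5 at 1.57 and 1.85 times PDPN, PDPN at 1.17 and 1.28 times CAV2, and GPRC5A at 1.19 and 1.06 times CLIC5.

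The levels depend on the length by which counts are divided. The length implied by the deposited counts and TPM was estimated against 1201 assembled genes with 1 transcript and over 2000 bases, for which the implied length lay between 0.966 and 1.05 times the listed one (5th to 95th percentile). For AGER the implied length was 1469 bases in replicate 1 and 1467 in replicate 2, against 2874 listed. For CLIC5 it was 2854 and 2600 against 8078, and for GPRC5A 1124 and 1101 against 2125. For CAV1, CAV2, EMP2, PDPN and HOPX it stayed close to the listed length, between 0.919 and 1.05 times it. The main assembled gene of CAVIN1 had 0.707 and 0.704 times its listed length, and that of RTKN2 1.08 times in both libraries. Dividing counts by the listed length instead, a choice made after the data were seen, left AGER first and HOPX second, with AGER at 1.18 times HOPX in replicate 1 and 1.23 times in replicate 2. It moved CLIC5 from rank 7 to rank 9, below PDPN and CAV2, and CAVIN1 from rank 3 to rank 5, in both libraries.

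**Figure D2:**
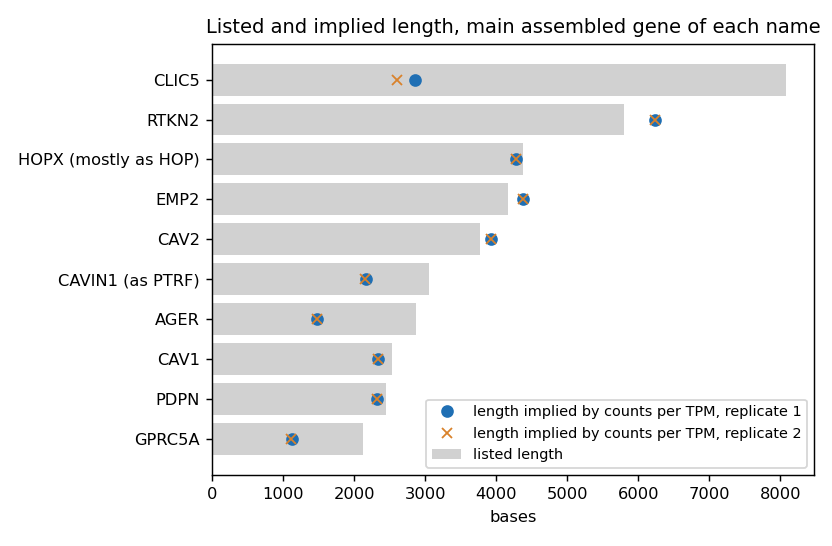
Listed length of the main assembled gene of each member (bars, in bases) and the length implied by its counts per TPM (points for replicate 1, crosses for replicate 2). AGER, CLIC5 and GPRC5A have implied lengths of 1469, 2854 and 1124 bases in replicate 1, well inside their bars, while RTKN2, EMP2 and CAV2 lie past theirs.

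Short assembled genes raised some summed levels. RTKN2 had 3 assembled genes, and the 2 under 1000 bases held 1.72% and 1.67% of its counts but 37.9% and 34.1% of its TPM. The main RTKN2 assembled gene of 5800 bases was at 9.91 and 14.2 TPM. For CAVIN1, 7 short assembled genes held 0.695% and 0.485% of counts and 15.4% and 11.5% of TPM. The short assembled genes of CAV2 and PDPN rested on few reads, 20 and 8 counts for CAV2 (exact Poisson 95% intervals 12.2 to 30.9 and 3.45 to 15.8) and 16 and 27 for PDPN. In CAV2, EMP2 and PDPN they held at most 1.11% of counts.

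The members found by name had a summed level of 893 TPM in replicate 1, against 1397 in replicate 2 (1145 ± 356, n = 2). Their share of counts was 0.235% in replicate 1, with a 95% Wilson interval from 0.233% to 0.237%. In replicate 2 the share was 0.321%, with an interval from 0.319% to 0.324%. With the older names, all 10 genes summed to 1245 and 1938 TPM and took 0.375% and 0.514% of counts. These intervals cover counting error only.

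All members with reads were somewhat higher in replicate 2, and by similar factors. In TPM the ratio of replicate 2 over replicate 1 ran from 1.32 for CAV2 to 1.69 for CLIC5, with AGER at 1.60, EMP2 and CAV1 at 1.55 and 1.54, and HOPX and CAVIN1 both at 1.54. The median TPM ratio of all names was itself 1.26. Counts were therefore scaled with TMM factors and the median log2 ratio of all names was removed, so that 0 stands for the typical name.

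On this scale of log2(CPM + 1), 0 of the 8 members that could be tested were over 2-fold apart, where 5.19% of all 11290 names were. The background was uneven: 5.16% of names lay more than 2-fold lower in replicate 2, while 0.0266% lay more than 2-fold higher there. The 8 members had log2 ratios between 0.05 and 0.24, with a median of 0.16, and all lay above the median of all names, as 50% of names do. The quartiles of all names were -0.17 and 0.13. Of the 1021 names at least as abundant as the lowest member, 80 were lower by more than 2-fold and 0 higher by that much, with a median of 0.04 and quartiles of -0.12 and 0.15. With 1 library on each side these ratios have no replicate check.

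**Figure D3:**
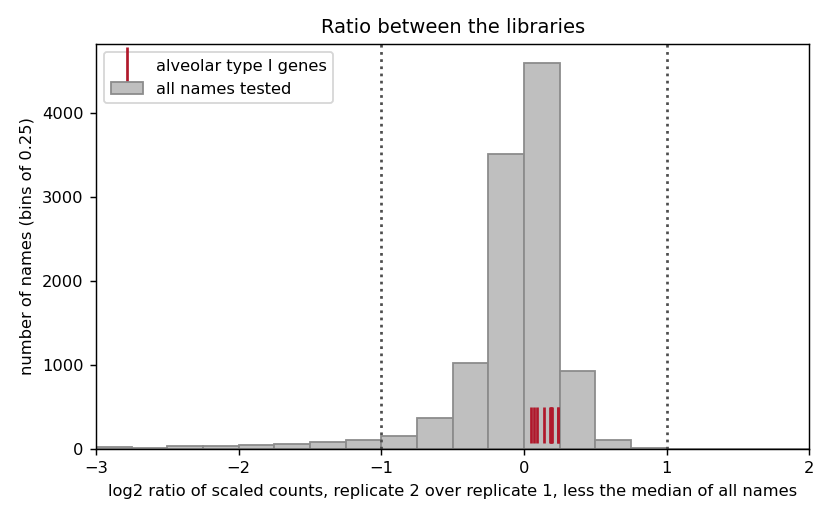
Histogram of the log2 ratio of scaled counts, replicate 2 over replicate 1, for all 11290 names tested, with the alveolar type I genes as red marks and dotted lines at 2-fold. The axis leaves out 198 names below -3 and 1 above 2. The red marks span only 0.05 to 0.24.

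AGER had the highest ratio, at 0.24 on the log2 scale with a standard error from counting of 0.02, and CAVIN1 as PTRF had the same value. CAV1, CLIC5, EMP2 and HOPX lay together between 0.18 and 0.20, and GPRC5A at 0.14. RTKN2 (0.09), PDPN (0.07) and CAV2 (0.05) were lowest, with counting errors of 0.05, 0.04 and 0.04. The gap between AGER and CAV2 is larger than these counting errors. It is smaller than the distance between the quartiles of all names, which was 0.30.

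Other genes linked with type I cells were found as well. Of 15 listed, 14 were found and all 14 reached 1 TPM in both libraries. Highest were CLDN18, a tight junction claudin, at 65.2 and 103 TPM and VEGFA, the endothelial growth factor, at 69.0 and 94.7 TPM. LAMA3, a laminin chain of epithelial basement membrane, was at 62.4 and 97.4 TPM, and LMO7 at 63.8 and 76.4 TPM. The water channel AQP5 had 38.8 and 61.2 TPM; it falls outside the naming rule and was picked once its values were known. Of 13 tested, 0 were over 2-fold apart, with a median log2 ratio of 0.13. Their ratios ran from -0.43 to 0.30, and AQP5 was the upper end. Of the 13, 10 lay above the median of all names, as 50% of names do. SPOCK2 was the 1 name not found.

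The caveola list beyond the members holds the other cavins and the proteins that shape or hold the neck of the pit. Of 9 listed, 8 were found; CAV3, the caveolin of striated muscle, was not. EHD2, an ATPase at the caveola neck, was highest, at 63.6 and 92.5 TPM. CAVIN3 (as PRKCDBP) was at 34.3 and 52.4 TPM, PACSIN2 at 29.4 and 36.4 TPM, and CAVIN2 (as SDPR) at 23.2 and 31.3 TPM. None of these 4 reached the level of CAV1 in either library. Of 8 tested, 0 were over 2-fold apart, and the median log2 ratio was 0.05. In the tables' GO annotation, 3 of the 10 members carried the term caveola (CAV2, CAVIN1 and EMP2), as did 0.283% of the 12711 names with any term. CAV1 did not carry it. The set was chosen with known caveola genes in it, so this count is a description and not an enrichment.

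AGER is a receptor for S100 proteins and HMGB1. All 12 genes on the list of its ligands and partners were found. The ligands led: S100A8 was at 555 and 816 TPM, S100A12 at 404 and 609 TPM, S100P at 400.4 and 577 TPM, and S100A9 at 354 and 517 TPM. S100A8, S100A9 and S100A12 are mainly made by neutrophils. Levels of S100A8 were above those of AGER in both libraries, and the 3 others were below it. Of 12 tested, 0 were over 2-fold apart, with a median log2 ratio of 0.14.

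Partners of PDPN had a lower median. Its cytoskeletal linkers MSN and EZR were at 109 and 150 TPM and at 82.6 and 123 TPM. The chemokine CCL21 was at 137 and 143 TPM, and CD44 at 32.1 and 30.3 TPM. CLEC1B, the platelet receptor for PDPN, was at 0.55 and 0.23 TPM, lowest on the list, and fell short of the level needed for a ratio. Of 7 tested, 0 were over 2-fold apart, and the median log2 ratio was -0.10. Library size scaling, which lifts the median of all names by 0.24, put this median at 0.15; relative to that shift it stayed below the typical name.

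Relatives of the members were expressed too. Of the other chloride intracellular channel proteins, CLIC1 was at 126 and 188 TPM, above CLIC5 in both libraries, and CLIC3 was at 55.2 and 87.0 TPM, below it. PMP22 and EMP3, relatives of EMP2, were at 56.6 and 82.5 TPM and at 42.6 and 57.9 TPM, both below EMP2. All 12 relatives on the list were found and tested, 0 were over 2-fold apart, and the median log2 ratio was 0.11.

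Type I cell identity is known to depend on YAP and TAZ, which act through TEAD factors, and on NKX2-1, the homeodomain factor of lung and thyroid. NKX2-1 was at 45.8 and 70.2 TPM. WWTR1, the gene of TAZ, was at 22.0 and 29.2 TPM. Among YAP targets, CCN2 (as CTGF) was at 86.3 and 124 TPM and CCN1 (as CYR61) at 46.8 and 64.1 TPM. All other genes of the list were lower, and 6 of the 12 reached 10 TPM in both libraries. YAP1 was at 3.73 and 5.21 TPM, and the highest TEAD gene, TEAD3, at 12.1 and 19.7 TPM. All 12 genes of this list were found, 0 of 11 tested were over 2-fold apart, and the median log2 ratio was 0.07. AGER relative to NKX2-1 was 9.96 in replicate 1 and 10.4 in replicate 2.

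Markers of other cells that express some of the members were measured beside them. Type II cell markers, led by SFTPC, SFTPB, SFTPA1 and SLC34A2, together had 3730 TPM in replicate 1, against 5856 in replicate 2, and all 10 reached 1 TPM in both. The summed level of the 10 type I genes was 0.334 and 0.331 times that of the type II markers, and AGER was 0.179 and 0.18 times SFTPC. Median log2 ratios were 0.19 for both lists when the older names are read. Airway markers summed to 8756 and 14008 TPM, of which SCGB3A1 alone held 8069 and 12898 TPM. Of 10 airway markers listed, 9 were found, and only 6 reached 1 TPM in both libraries. The 7 tested had a median log2 ratio of 0.21. On that list BPIFA1 was over 2-fold higher in replicate 2, with a log2 ratio of 3.50 (0.05 and 12.5 TPM). This rests on 1 and 224 counts, the first of which lies under the detection floor of 3 counts.

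Blood vessel endothelium markers summed to 443 and 648 TPM, and all 13 reached 1 TPM in both libraries. EGFL7 was at 110 and 159 TPM, CLDN5 at 88.8 and 137 TPM, VWF at 61.9 and 82.7 TPM, and PECAM1 at 38.1 and 55.1 TPM. Their median log2 ratio was 0.16, and CAV1 was 3.19 and 3.40 times PECAM1. Smooth muscle markers summed to 1405 and 2055 TPM, led by ACTG2 at 590.1 and 931 TPM, TAGLN at 358 and 488 TPM, and ACTA2 at 235 and 323 TPM. The part of vessel and muscle RNA in the levels of CAV1, CAV2 and CAVIN1 was not tested.

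Markers of further cell types had lower sums. Adipocyte markers summed to 45.6 and 56.7 TPM, with PLIN1 at 16.3 and 37.3 TPM. On scaled counts the 4 tested had a median log2 ratio of 0.03. CIDEC had -2.40 and PLIN4 -0.40, whereas ADIPOQ had 0.86 and PLIN1 0.46. Mesothelium markers summed to 116 and 184 TPM with 3 of 6 found: MSLN (56.8 and 90.5 TPM), UPK1B (52.5 and 84.3 TPM) and LRRN4 (7.08 and 9.05 TPM). Lymphatic endothelium markers summed to 44.1 and 50.3 TPM, led by LYVE1 at 28.8 and 37.9 TPM. The defining factor PROX1 was at 0.80 and 0.59 TPM, from 124 and 44 counts. Its log2 ratio of -1.39 is on scaled counts, and its fall in TPM was smaller. On the same scale FLT4 had -0.47 and RELN -0.70, whereas LYVE1 had 0.07 and MMRN1 0.33. The median of the 5 lymphatic markers was -0.47. Basal and squamous markers summed to 131 and 212 TPM, of which KRT15 held 98.9 and 159 TPM. The parts of mesothelium, lymphatic vessels and basal cells in PDPN were not tested.

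Fibroblast markers summed to 393 and 437 TPM, led by DCN at 249 and 240 TPM, and striated muscle markers to 408 and 444 TPM. Among the latter, TNNT2, the highest by mean, was at 93.2 and 96.8 TPM, and TNNT3 at 106 and 75.2 TPM. Median log2 ratios were 0.14 for fibroblast and -0.16 for striated muscle markers. The striated muscle ratios ran from -0.93 for TNNT3 to 0.16. On TPM the fibroblast median was 0.001, near the typical name. Library size scaling put the striated muscle median at 0.05, below its shift of all names. Against hepatocyte markers the members' position turned over between the libraries. The 10 type I genes summed to 0.118 times the hepatocyte markers in replicate 1 and 6.49 times in replicate 2. AGER was 0.057 times ALB in replicate 1 and 4.14 times in replicate 2.

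**Figure D4:**
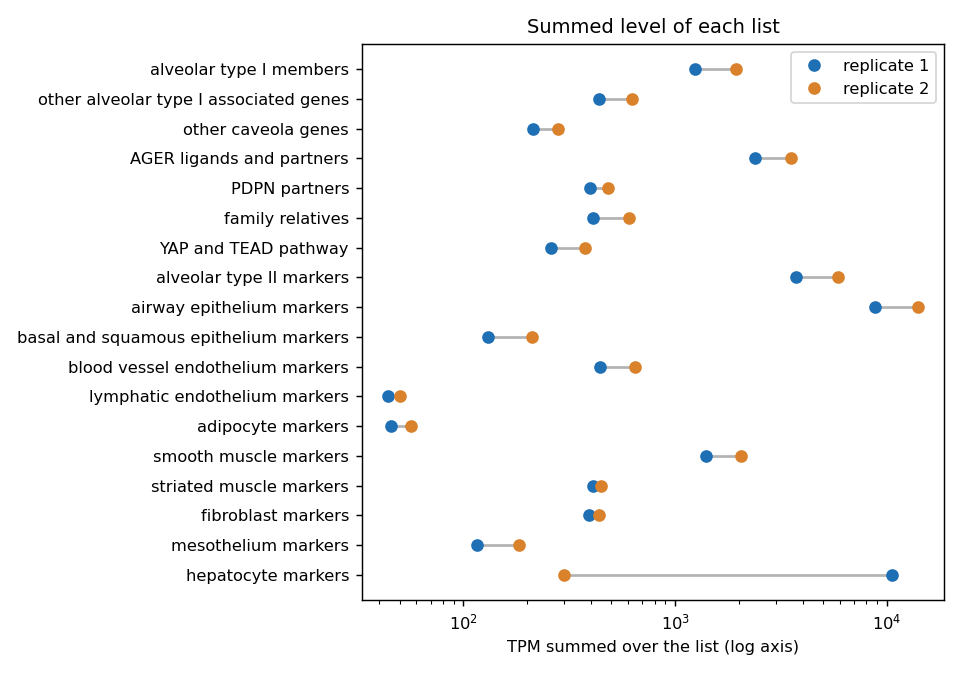
TPM summed over the type I genes (10 genes, older names read) and over each other list, on a log axis, with 1 point per library. Hepatocyte markers span 10593 to 299 TPM, whereas the type I genes span 1245 to 1938 TPM.

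**Figure D5:**
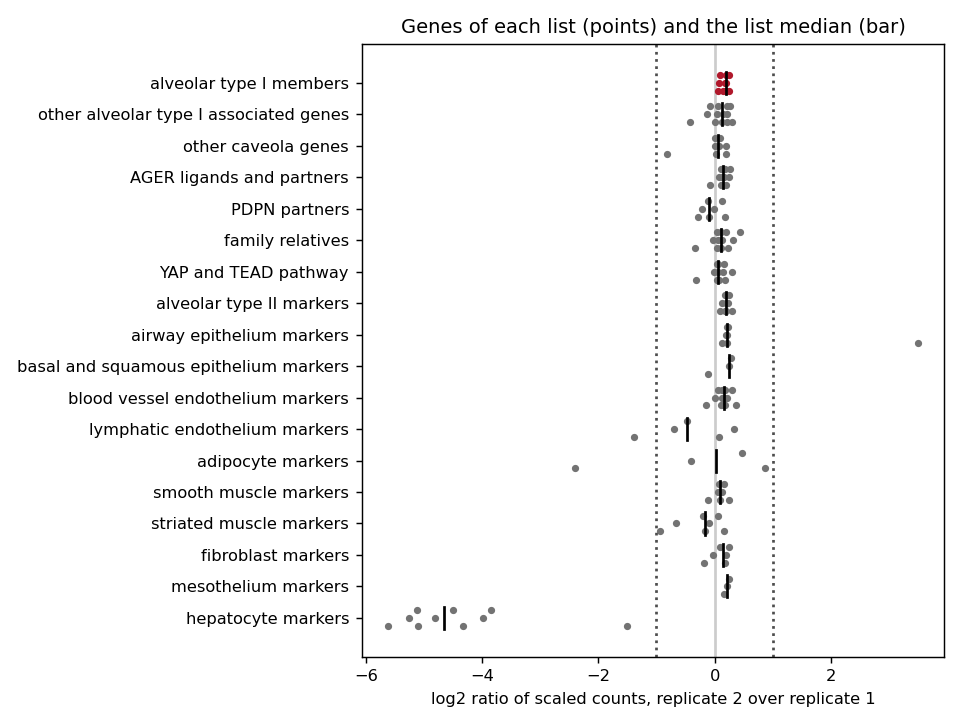
Log2 ratio of scaled counts, replicate 2 over replicate 1, for each gene tested on each list (points; the type I genes in red) with the list median (bar); dotted lines mark 2-fold and 0 is the median of all names. The type I genes lie between 0.05 and 0.24. Medians in that range include type II (0.19), airway (0.21), mesothelium (0.21), blood vessel endothelium (0.16) and fibroblast (0.14) markers. The hepatocyte median is -4.66.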

How the data were processed

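Poly(A)-selected RNA of 2 libraries was sequenced. The features are clusters of a Trinity assembly, per the file headers; cutadapt 1.9 is named for both libraries and the mm10 build for replicate 1 only, per the submitters' processing notes. The quantifier and the assembler version were not stated in any source used here. The deposited expected counts hold decimals. The second value column, with no unit in its header, was read as TPM because the authors' values sum to 996837 and 996239; the deposited length is in bases. TPM and counts were summed over assembled genes of 1 name. For ratios, expected counts were rounded and scaled by TMM (edgeR 4.0.16, R 4.3.3; factors 0.910 and 1.10), with a pseudocount of 1 CPM, only names whose mean reached 1 CPM, and the median subtracted. For low genes this pseudocount makes a difference look smaller than it is. The ratio step was tested on simulated data.

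The members and all 18 gene lists were chosen with earlier results of these data known. Named genes are the 10 members and, of each other list, the 4 highest by TPM and those over 2-fold apart (up to 6). AQP5, CLEC1B, YAP1 and TEAD3 were added after their values were seen, and not every gene under this rule is given with values. Older names for 8 genes, matched by protein description, were read after the data were seen. Of the 10 symbols, 10 are in the RefSeq table of ASM189008v1, whose coordinates were not used. Alternatives were other pseudocounts, filters, scalings (DESeq2 1.42.0 among them), row choices and leaving out each replicate. Computations used Python 3.11.15 with pandas 2.3.3, numpy 2.4.6 and scipy 1.17.1; figures used matplotlib 3.10.9.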

Additional observations from a re-analysis of the deposited data

How the results depend on the processing

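The summed level of the members found by name, a mean of 1145 TPM, ranged from 892.9 to 1397 TPM without each replicate in turn. It moved to 1549 TPM without the 10 highest assembled genes and was 1426 TPM without mitochondrially encoded names. Both rises follow from scaling the remaining TPM back to the same total. With the older names HOP and PTRF, which adds their reads, it moved to 1592 TPM. The count of members over 2-fold apart was 0 under every setting run. Their median log2 ratio of 0.16 moved to 0.42 with library size scaling, where the median of all names is 0.24, and to 0.28 on TPM, for which the cause was not tested; the other settings kept it within 0.1. Member ratios under the alternatives ran from 0.04 to 0.50, the upper end under library size scaling, which lifts all names. Using only the highest assembled gene of each name took RTKN2 from 18.8 to 12.1 TPM. No paired analysis was possible because both libraries belong to 1 group. With 1 library against 1, the spread between animals is unknown, and counting error is large for names with few counts; the ratios of CAV2, PDPN and RTKN2 lay within 2 counting errors of 0.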
